A study of Bos taurus with 24 samples.

Results

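RAB small GTPases are the proteins that give each membrane compartment of a cell its identity and steer vesicles between compartments. They were taken here as every entry of the expression table whose gene symbol starts with RAB and a digit, which gave 60 entries of 58 symbols among the 11306 genes listed. Of these entries, 54 (52 symbols) are GTPases. The other 6 are proteins named after a RAB that they bind or regulate, namely RAB3GAP1, RAB3GAP2, RAB3IP, RAB3IL1, RAB11FIP2 and RAB11FIP5, and they are described apart.

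The study asked how summer heat affects cattle oocytes. RNA was measured in 24 libraries, 6 each from germinal vesicle (GV) oocytes of May, GV oocytes of July, metaphase II (MII) oocytes of May and MII oocytes of July. GV oocytes are the immature cells as collected, and MII oocytes had been matured in vitro from such cells. All groups came from Bos taurus Angus-based beef cows that were neither lactating nor pregnant, and each library was a pool of 4 oocytes of 1 animal according to the methods, so the libraries of a group are separate pools. The same herd was sampled in both months and for both stages, and the labels do not tie libraries to cows, so groups may share animals. May stood for spring and July for summer, and any other difference between the collections of the 2 months cannot be told apart from the season. The values are listed as FPKM, fragments scaled to the length of the transcript and to the size of the library, with a lowest value of 0.01 in place of 0. Beyond that, all libraries have nearly the same total, and the methods of the study do not describe a step that set it.

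A RAB protein is switched on when a guanine nucleotide exchange factor (GEF) loads it with GTP, and off when a GTPase-activating protein (GAP) speeds up the hydrolysis of that GTP. Prenyl groups added by geranylgeranyl transferase anchor the protein in membranes, GDP dissociation inhibitors (GDI) take it back to the cytosol, and the active form recruits effectors such as tethers and motors. In oocytes, membrane traffic under RAB control is known for the delivery of cortical granules to the cell cortex, for recycling through RAB11 endosomes and for movements of the spindle.

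The FPKM of every library add up to 86768.1 or 86768.2, so the values are relative within a library, and less RNA per oocyte cannot be told apart from a change of other transcripts. The depth relative to the first May GV library, read from the steps between low values, was 0.0565 in May GV 6, 0.149 in May MII 6 and 0.393 in July GV 2. Libraries July GV 3 and July GV 5 had 2.19 and 6.51, and the others had 0.542 to 1.06. Of 12 oocyte markers 11 were measured, and all 11 were above the lowest value in every library. The summed level of the 19 measured of 22 cumulus and granulosa cell markers was 553 FPKM in May GV 6, 156 FPKM in May GV 3 and 126 FPKM in May MII 6, and 15.8 to 60.4 FPKM in the others. Among them FSHR was at 0.01 in 21 of 24 libraries and AREG in 17. Others were above 0.01 in all 24 libraries, namely KRT8 (9.76 to 146 FPKM), KRT18 (0.149 to 392 FPKM), HAS2, PTGS2, GJA1 and VCAN. The 7 measured of 8 blood and immune markers summed to 2.88 to 21.1 FPKM. The 3 libraries with a relative depth under 0.5 are called the shallow libraries, and results are given with and without them where they differ.

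RAB11A, the RAB of recycling endosomes, stood far above every other RAB in mean level. Its mean over 24 libraries was 55.9 FPKM, rank 225 among all genes, and 8.34-fold over the next entry in order apart from the second loci described further on. By group it averaged 54.6 ± 24 (SD, n = 6) FPKM in May GV, 55.1 ± 15 in July GV, 56.8 ± 25 in May MII and 57.2 ± 29 in July MII oocytes. The lowest, median and highest library had 14.2, 51.7 and 80.9 FPKM in May GV, 27.8, 58.5 and 67.8 FPKM in July GV, 17.3, 59.7 and 83.0 FPKM in May MII, and 18.9, 54.6 and 96.3 FPKM in July MII oocytes. The groups overlapped fully, and the log2 difference between MII and GV was 0.07 (standard error 0.46) in May and -0.07 (standard error 0.37) in July, with limma adjusted p = 0.917 and 0.900. In the shallow libraries RAB11A was below every other library of its group. It was also below RAB5A in May GV 6, with 14.2 against 18.4 FPKM, and in May MII 6, with 17.3 against 23.4 FPKM. In July GV 2 it had 27.8 FPKM beside 26.6 FPKM of RAB5B. Without the shallow libraries RAB11A averaged 62.7 ± 15 FPKM in May GV (n = 5), 60.6 ± 7.5 in July GV (n = 5) and 64.7 ± 18 in May MII (n = 5) oocytes. RAB11A made up 40.5% to 53.2% of the summed FPKM of all RAB entries in the median library of each group. Its lowest share was 10.4% in May GV, 16.4% in July GV, 7.81% in May MII and 12.3% in July MII. The second loci were kept in these sums.

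RAB5A, RAB9A, RAB5B, RAB5C and RAB2B followed in mean level, with means over 24 libraries of 6.71, 5.22, 4.97, 4.56 and 4.38 FPKM. Their medians were 4.33, 5.14, 1.96, 2.86 and 4.21 FPKM. The mean of RAB5B rests largely on the shallow libraries, with 13.6 FPKM in May GV 6, 26.6 in July GV 2 and 19.5 in May MII 6. RAB5 proteins organise early endosomes, RAB9A returns cargo from late endosomes to the Golgi, and RAB2B acts in traffic between the endoplasmic reticulum (ER) and the Golgi. In both GV groups the ranges of these 5 overlapped, so their order there is not set apart by their spread. In both MII groups RAB5C lay below RAB9A and RAB2B with no overlap, and the ranges of the other 4 overlapped. Of the 58 entries without the second loci, 1 averaged over 10 FPKM, 22 averaged 1 to 10, 24 averaged 0.1 to 1 and 11 averaged under 0.1 FPKM. RAB20, RAB37 and RAB3B never exceeded 0.1 FPKM in any library, and the other 57 entries (51 GTPases and all 6 partners) entered the tests. RAB37, RAB3B and RAB20 reached at most 0.0273, 0.0385 and 0.0550 FPKM.

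**Figure D1:**
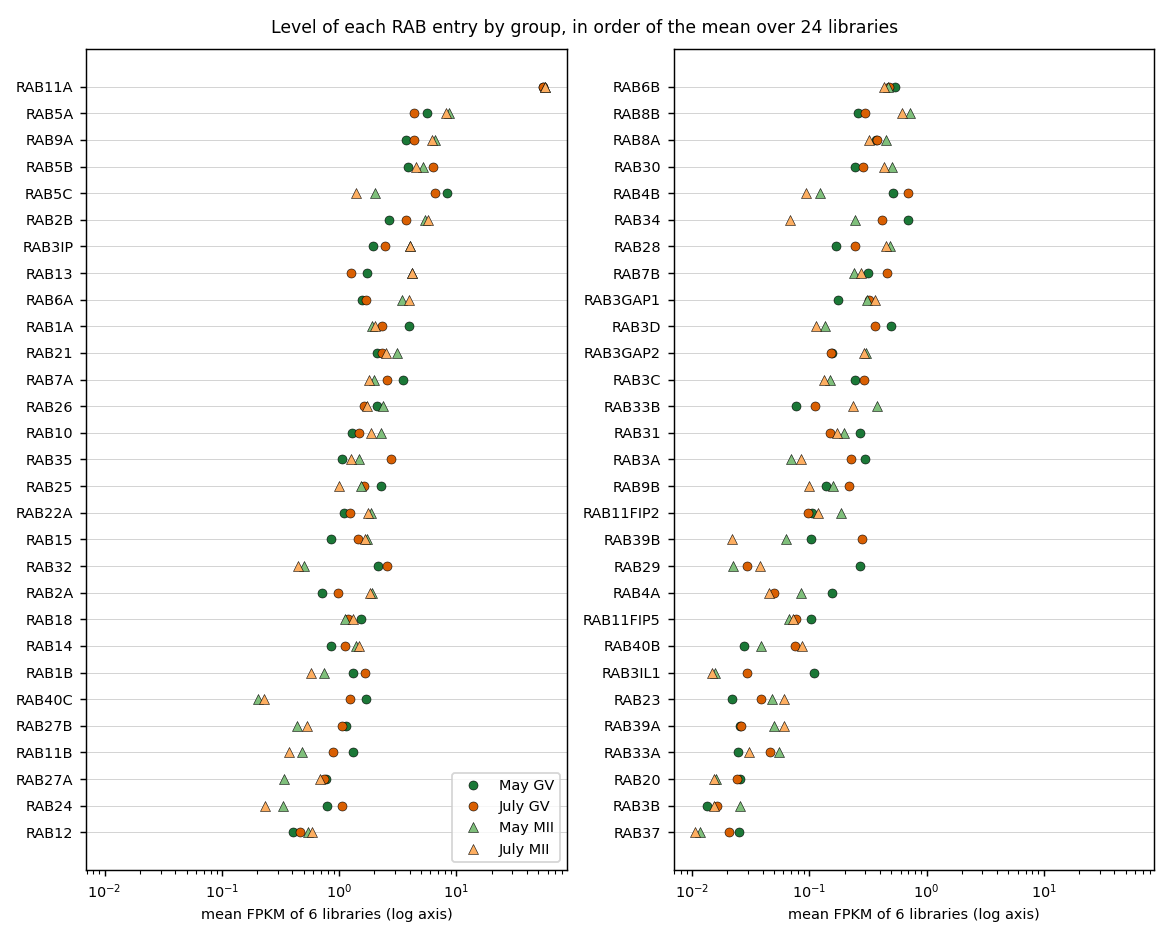
Mean FPKM of each RAB entry in May GV, July GV, May MII and July MII oocytes (6 libraries each) on a log axis, in order of the mean over 24 libraries, without the second loci of RAB21 and RAB27A. RAB11A stands alone near 55.9 FPKM, and the 4 groups of most entries lie close together compared with the distance between entries.

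For each comparison, limma was fitted to log2(FPKM + 1) of all 9526 genes over 0.1 FPKM in at least 1 library. Called were genes with a limma p under 0.05 before adjustment that also changed more than 2-fold on that scale, and Benjamini-Hochberg adjusted p-values over all 9526 genes are given beside the calls. From GV to MII, 5 of 57 RAB entries (8.77%) were called in May, where 11.8% of all genes were, and 3 of 57 (5.26%) in July, where 11.5% of all genes were. In May 2 were called higher in MII, RAB13 and the locus of RAB27A on chromosome 18, where 3.57% of all genes were, and 3 lower, RAB5C, RAB32 and RAB40C, where 8.25% of all genes were. In July 1 was called higher, RAB13, where 2.2% of all genes were, and 2 lower, RAB5C and RAB32, where 9.26% of all genes were. The shares of RAB entries called were below those of all genes in both months, on few entries. Adding 1 FPKM shrinks changes at low levels, so entries under about 1 FPKM can hardly be called. Of the 58 entries without the second loci, 24 averaged 0.1 to 1 FPKM and 11 under 0.1 FPKM. The lower shares are therefore not read as a trait of the RABs.

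An adjusted p under 0.05 was reached by 9 entries (15.8%) in May, where 24.2% of all genes passed. Of these 4 were higher in MII (9.45% of all genes) and 5 lower (14.7% of all genes). In July 10 entries (17.5%) passed, where 30.7% of all genes passed, 1 of them higher (7.67% of all genes) and 9 lower (23.1% of all genes). Among the 57 entries tested, the stages did not overlap in May for RAB30, higher in MII (4.65% of all genes), and for RAB27B and RAB32, lower in MII (8.98% of all genes). In July they did not overlap for RAB13, higher (3.07% of all genes), and for 8 entries that were lower (14.7% of all genes). RAB37, which was too low to be tested, also did not overlap, with 0.0188 to 0.0273 FPKM in May GV and 0.01 to 0.0181 FPKM in May MII, and 0.0122 to 0.0271 FPKM in July GV and 0.01 to 0.012 FPKM in July MII oocytes. The median log2 difference of the 57 entries was 0.04 in May and -0.01 in July, beside -0.03 and -0.02 over all genes. Of all called genes, 30.2% were higher in MII in May and 19.2% in July. Those shares were 22.2% and 27.0% with median-of-ratios scaling and 46.2% and 42.4% with quantile normalization.

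The 3 shallow libraries bore on these counts. Without them, which was chosen after the values were seen, 21 of 57 entries (36.8%) had an adjusted p under 0.05 in May, where 41.9% of all genes did, and 21 (36.8%) in July, where 39.3% did. In May 11 of them were higher (19.3% of all genes) and 10 lower (22.6%), and in July 11 were higher (13.1%) and 10 lower (26.2%). In that fit 8 entries were higher in MII in both months, namely RAB10, RAB13, RAB2B, RAB30, RAB3GAP2, RAB3IP, RAB6A and RAB9A. A further 9 were lower in both, namely RAB24, RAB27B, RAB32, RAB34, RAB3C, RAB3D, RAB40C, RAB4B and RAB5C. No entry passed with opposite signs in the 2 months.

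Among the RABs of early endosomes, RAB5C showed the largest fall of the RAB entries on the log2(FPKM + 1) scale in both months. RAB5C (chromosome 19, 42898000 to 42903082, minus strand of the assembly UMD3.1) is 1 of 3 RAB5 paralogs. In May GV libraries it had 4.81, 14.9, 6.49, 10.8, 10.7 and 2.02 FPKM, and in May MII libraries 3.23, 2.48, 1.58, 2.32, 1.31 and 1.15 FPKM. In July GV libraries it had 6.48, 6.82, 11.6, 3.47, 6.85 and 3.97 FPKM, and in July MII libraries 2.15, 0.761, 1.79, 1.81, 0.572 and 1.27 FPKM. In July the stages did not overlap, and in May the shallow library May GV 6 alone lay within the MII range. The mean fell from 8.30 ± 4.7 to 2.01 ± 0.80 FPKM in May and from 6.52 ± 2.9 to 1.39 ± 0.63 FPKM in July (SD, n = 6). The log2 difference was -1.48 (standard error 0.37, limma adjusted p = 0.0115) in May and -1.61 (standard error 0.27, limma adjusted p = 0.000725) in July. Exact permutation tests over the 924 assignments of 6 and 6 libraries gave two-sided p = 0.00866 and 0.00216, the latter being the smallest that they can give.

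RAB5A (chromosome 1, 44747456 to 44755225) and RAB5B (chromosome 5, 57646353 to 57661962) did not pass the test with all libraries. RAB5A had a lowest, median and highest library of 1.64, 2.86 and 18.4 FPKM in May GV and 3.09, 6.50 and 23.4 FPKM in May MII oocytes. In July these were 1.75, 2.94 and 12.2 FPKM in GV and 3.52, 5.92 and 15.7 FPKM in MII oocytes. The stages overlapped, with log2 differences of 0.73 (standard error 0.52) in May and 0.81 (standard error 0.44) in July and limma adjusted p = 0.315 and 0.182. The highest GV values were those of the shallow libraries May GV 6 and July GV 2. Without the 3 shallow libraries RAB5A averaged 2.99 ± 1.7 and 5.79 ± 2.0 FPKM in May GV and MII and 2.79 ± 1.1 and 8.17 ± 5.3 FPKM in July GV and MII oocytes, and in July it was then called higher in MII (log2 difference 1.12, limma adjusted p = 0.0328). RAB5B ranged from 0.846 to 26.6 FPKM over all libraries, its log2 differences were 0.17 (standard error 0.58) and -0.07 (standard error 0.67), with limma adjusted p = 0.837 and 0.95.

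The 3 RAB5 paralogs took different shares of the family in the median libraries of the stages. RAB5C held a median of 58.6% of the summed RAB5 FPKM in May GV libraries (range 5.95% to 82.1%) and 51.4% in July GV libraries (14.9% to 78.8%). In MII libraries its median share was 18.7% in May (2.62% to 43.2%) and 9.14% in July (4.56% to 29.1%). RAB5A held medians of 22.5% and 25.2% in May and July GV and of 53.3% and 59.5% in May and July MII libraries. RAB5A exceeded RAB5C in 1 of 6 May GV and 2 of 6 July GV libraries, and in 5 of 6 May MII and 6 of 6 July MII libraries. Of the 3 GV libraries with more RAB5A, 2 were shallow ones. The summed level of the family averaged 17.7, 17.2, 16.0 and 14.1 FPKM in May GV, July GV, May MII and July MII with all libraries. The shallow libraries raised these means in all groups but July MII, which held none. RAB5B averaged 3.87, 6.29 and 5.21 FPKM in May GV, July GV and May MII with them and 1.94, 2.24 and 2.35 FPKM without. RAB5A had 5.57, 4.37 and 8.73 FPKM with them and 2.99, 2.79 and 5.79 FPKM without. For RAB5C these were 8.30, 6.52 and 2.01 FPKM and 9.55, 6.46 and 2.18 FPKM. The shares are descriptions and were not tested.

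**Figure D2:**
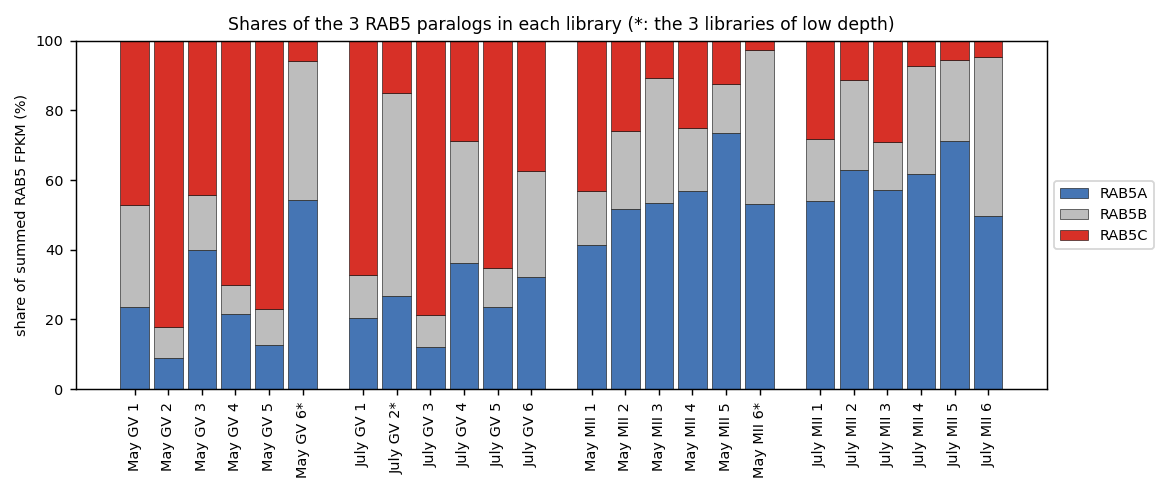
Share of RAB5A, RAB5B and RAB5C in the summed RAB5 FPKM (percent, vertical axis) of each of the 24 libraries (horizontal axis), with the 3 shallow libraries starred. RAB5C takes the largest share in most GV libraries and RAB5A in most MII libraries. RAB5B takes 39.8% to 58.2% in the starred libraries, and also 45.8% in July MII 6 and 35.9% in May MII 3.

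Among the other early endosome RABs, RAB22A, which acts in endosome sorting, averaged 1.10 and 1.23 FPKM in May and July GV and 1.87 and 1.76 FPKM in MII oocytes. RAB31, its close relative, averaged 0.151 to 0.269 FPKM by group. RAB21, which acts in integrin uptake, averaged 2.10 to 3.13 FPKM by group at its locus on chromosome 5. None of the 3 passed the test in either month with all libraries.

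RAB32 was the second RAB that fell in both months, and it belongs to the RABs of late endosomes and lysosomes. RAB32 (chromosome 9, 84937643 to 84969791) acts in the formation of lysosome-related organelles and at mitochondria. Its values in May were 1.97, 3.48, 1.80, 2.19, 2.53 and 0.806 FPKM in GV and 0.350, 0.468, 0.756, 0.721, 0.353 and 0.351 FPKM in MII libraries. In July they were 1.89, 4.17, 2.26, 2.95, 1.82 and 2.29 FPKM in GV and 0.408, 0.210, 0.346, 0.801, 0.177 and 0.723 FPKM in MII libraries. Every GV library of either month was above every MII library of that month. The mean was 4.26-fold lower in MII in May and 5.77-fold lower in July. The log2 difference was -1.02 (standard error 0.20, limma adjusted p = 0.00394) in May and -1.29 (standard error 0.18, limma adjusted p = 0.000234) in July, and the exact permutation p was 0.00216 in both. Its May value lies close to the limit of a 2-fold change, and the 2-fold limit was missed when May GV 2, May GV 5, May MII 1, May MII 5 or May MII 6 was left out, with log2 differences of -0.90 to -0.99, and with quantile normalization, at -0.90 (limma adjusted p = 0.00767).

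Of the 9 RABs of this class, 1 was called lower in May and 1 in July, both times RAB32, beside 8.25% and 9.26% of all genes called lower. An adjusted p under 0.05 was reached by 1 of 9 (11.1%) in May, where 14.7% of all genes passed as lower, and by 3 of 9 (33.3%) in July, where 23.1% did, all of them lower in MII. RAB24, which is linked to autophagosomes, had 0.964, 1.2, 1.40, 1.19, 0.887 and 0.746 FPKM in July GV and 0.346, 0.135, 0.297, 0.402, 0.102 and 0.122 FPKM in July MII libraries. The stages did not overlap in July, and RAB24 fell with a log2 difference of -0.74 (standard error 0.12, limma adjusted p = 0.000483). In May it averaged 0.795 ± 0.47 FPKM in GV and 0.330 ± 0.18 FPKM in MII oocytes and did not pass (limma adjusted p = 0.145), with May GV 6 at the lowest value of 0.01. RAB24 was named after its values were seen.

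RAB9A (chromosome X, 137004144 to 137023609) had a lowest, median and highest value of 2.24, 2.96 and 8.60 FPKM in May GV and 5.10, 6.11 and 9.13 FPKM in May MII oocytes. In July these were 2.99, 3.67 and 8.11 FPKM in GV and 3.24, 6.01 and 9.79 FPKM in MII oocytes. The highest GV value of each month came from a shallow library. The log2 difference was 0.77 (standard error 0.27, limma adjusted p = 0.0510) in May and 0.43 (standard error 0.25, limma adjusted p = 0.213) in July. Without the 3 shallow libraries it was 0.91 (limma adjusted p = 0.00100) and 0.60 (limma adjusted p = 0.0455). RAB7A, the main RAB of late endosomes, averaged 3.50 and 2.58 FPKM in May and July GV and 2.0 and 1.80 FPKM in MII oocytes and did not pass. RAB7B, RAB9B, RAB29 and RAB39A averaged 0.323, 0.154, 0.0905 and 0.0406 FPKM over 24 libraries and did not pass in either month.

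RAB39B, which acts in autophagy and endosome traffic is listed on chromosome X (38586279 to 38590530). Its values were 0.101, 0.0696, 0.159, 0.138, 0.143 and 0.01 FPKM in May GV and 0.181, 0.818, 0.113, 0.153, 0.188 and 0.246 FPKM in July GV libraries. In MII oocytes they were 0.0835, 0.105, 0.0694, 0.0721, 0.0382 and 0.01 FPKM in May and 0.0805 FPKM in 1 library and 0.01 FPKM in 5 libraries in July. These are low values, worth at most 10 steps of the smallest size in 22 of the 24 libraries and at the lowest value in 7. The 2 months overlapped in either stage, and the highest July GV value and the lowest values of May GV and May MII were those of the shallow libraries. RAB39B was not called between the months, but with no value over 0.818 FPKM it could not reach the 2-fold limit on the log2(FPKM + 1) scale. By the ratio of group means it was called in MII oocytes, with 0.0631 FPKM in May and 0.0218 FPKM in July.

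The difference between July and May in RAB39B was 0.20 (standard error 0.10, limma adjusted p = 1) in GV and -0.06 (standard error 0.024, limma adjusted p = 1) in MII oocytes on the log2(FPKM + 1) scale. The two-sided exact permutation p was 0.0238 in GV and 0.0541 in MII oocytes. Without the 3 shallow libraries the mean was 0.122 ± 0.036 FPKM in May GV (n = 5) and 0.176 ± 0.049 FPKM in July GV (n = 5), and the log2 difference was 0.07. In MII oocytes it was then -0.07 (limma unadjusted p = 0.00571, adjusted p = 0.999). From GV to MII, RAB39B fell in July by 0.31 on the log2 scale (limma adjusted p = 0.0314) with no overlap of the stages. It passed there in 7 of the 12 fits that left out single libraries. In May the log2 difference from GV to MII was -0.05 and did not pass (limma adjusted p = 0.312). The difference between the months in this change was -0.25 (limma unadjusted p = 0.0280, adjusted p = 0.9998). Over the 24 libraries, the RAB entries most like RAB39B in log2(FPKM + 1) were RAB4B, RAB32 and RAB24, with Pearson's r of 0.69, 0.68 and 0.58. Those libraries share the stages and the shallow libraries, so these values only describe them.

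Among the RABs of recycling endosomes, 0 of 8 were called in either month, and RAB4B was the only one with an adjusted p under 0.05, in July, where 30.7% of all genes passed. RAB4B (chromosome 18, 50314867 to 50323664), which returns receptors from early endosomes to the surface, had 0.258, 1.27, 0.924, 0.565, 0.479 and 0.659 FPKM in July GV libraries. In July MII libraries it had 0.0782, 0.0643, 0.132, 0.0678, 0.0849 and 0.131 FPKM. The stages did not overlap, and RAB4B fell by 0.60 on the log2 scale (standard error 0.12, limma adjusted p = 0.00238), 7.43-fold in the mean FPKM. In May the means were 0.517 ± 0.37 FPKM in GV and 0.123 ± 0.097 FPKM in MII oocytes (limma adjusted p = 0.0640), with both shallow libraries at 0.01. Its paralog RAB4A lay at 0.0219 to 0.0971 FPKM in 22 libraries, with no difference between stages that passed. Only in May GV 6 and May MII 6 did it reach 0.737 and 0.316 FPKM. Both are of low depth, with cumulus marker sums of 553 and 126 FPKM. May GV 3, with a sum of 156 FPKM, had 0.0437 FPKM of RAB4A. The part of cumulus cells in these values was not tested.

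RAB11B, the paralog of RAB11A, was lower than RAB11A in all 24 libraries. Its medians were 0.515 and 0.530 FPKM in May and July GV and 0.371 and 0.216 FPKM in May and July MII oocytes, and the highest value of either GV group, 5.16 and 3.38 FPKM, was that of a shallow library. The log2 differences between stages were -0.39 (standard error 0.34) and -0.30 (standard error 0.29) and did not pass (limma adjusted p = 0.396 and 0.463). RAB25, the third member of the RAB11 branch and known from epithelia, averaged 2.28, 1.63, 1.55 and 0.995 FPKM in May GV, July GV, May MII and July MII. RAB14, RAB15 and RAB35 averaged 1.21, 1.42 and 1.64 FPKM over 24 libraries. None of these 4 passed in either month.

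RABs of secretion and exocytosis held the clearest rise, that of RAB13. RAB13 (chromosome 3, 16511100 to 16515183) carries cargo from the trans-Golgi to the surface and to tight junctions. Its values in May were 0.600, 0.444, 1.25, 0.435, 0.565 and 7.11 FPKM in GV and 4.17, 1.07, 4.34, 2.92, 4.33 and 8.08 FPKM in MII libraries. In July they were 0.588, 2.53, 1.16, 1.56, 0.623 and 1.09 FPKM in GV and 2.92, 3.52, 4.26, 4.83, 2.54 and 7.15 FPKM in MII libraries. In July every MII library was above every GV library, by a narrow margin over the shallow library July GV 2. In May the shallow library May GV 6, which had the high cumulus marker sum of 553 FPKM, was above all MII libraries but 1. The stages also overlapped in May without it, as May GV 3 had 1.25 FPKM and May MII 2 had 1.07 FPKM.

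The log2 difference of RAB13 was 1.14 (standard error 0.45, limma adjusted p = 0.0785, exact permutation p = 0.0584) in May. In July it was 1.2 (standard error 0.25, limma adjusted p = 0.00299, exact permutation p = 0.00216). Without the 3 shallow libraries it was 1.33 (limma adjusted p = 0.00361) in May and 1.34 (limma adjusted p = 0.000795) in July. The mean was then 0.659 ± 0.34 FPKM in May GV and 3.36 ± 1.4 FPKM in May MII oocytes (n = 5 each). The May call was lost without May GV 2, May GV 4 or May MII 6, with log2 differences of 1.03, 1.02 and 0.95.

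The RAB3 paralogs, which act in the docking of secretory granules, were all low. Their summed mean was 1.05 and 0.895 FPKM in May and July GV and 0.383 and 0.349 FPKM in May and July MII oocytes. RAB3A averaged 0.299 ± 0.19 FPKM in May GV and 0.0702 ± 0.058 FPKM in May MII and passed there (log2 difference -0.27, limma adjusted p = 0.0344), but not in July, where it averaged 0.227 ± 0.21 and 0.0852 ± 0.081 FPKM (limma adjusted p = 0.210). RAB3C had 0.337, 0.198, 0.242, 0.337, 0.345 and 0.292 FPKM in July GV and 0.116, 0.111, 0.118, 0.179, 0.148 and 0.134 FPKM in July MII libraries. It fell in July with no overlap (log2 difference -0.19, limma adjusted p = 0.00308), and in May it averaged 0.247 ± 0.052 and 0.151 ± 0.035 FPKM (limma adjusted p = 0.0852). RAB3D averaged 0.493 ± 0.33 and 0.136 ± 0.099 FPKM in May GV and MII (limma adjusted p = 0.0703) and 0.360 ± 0.16 and 0.115 ± 0.12 FPKM in July GV and MII, and it fell in July (log2 difference -0.29, limma adjusted p = 0.0262). When single libraries were left out, RAB3A passed in May in 5 of 12 fits and RAB3D passed in July in 6 of 12. RAB3B stayed at 0.01 to 0.0385 FPKM and was not tested.

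RAB27B, which tethers exosomes and secretory granules at the membrane, had 1.59, 0.638, 0.895, 1.39, 0.662 and 1.65 FPKM in May GV and 0.424, 0.429, 0.50, 0.495, 0.566 and 0.221 FPKM in May MII libraries. These did not overlap, and RAB27B fell in May (log2 difference -0.55, standard error 0.16, limma adjusted p = 0.0273). It passed there in 8 of the 12 fits that left out single libraries. In July it averaged 1.05 ± 0.39 FPKM in GV and 0.529 ± 0.18 FPKM in MII oocytes, with overlap (log2 difference -0.41, limma adjusted p = 0.0580). RAB8A and RAB8B, which act in polarised exocytosis, averaged 0.325 to 0.453 FPKM and 0.259 to 0.729 FPKM by group and did not pass. RAB8A exceeded RAB8B in 4, 5 and 5 of 6 May GV, July GV and May MII libraries and in 1 of 6 July MII libraries. RAB10 averaged 1.29 and 1.48 FPKM in May and July GV and 2.26 and 1.89 FPKM in MII oocytes and did not pass with all libraries, and RAB12 and RAB26 averaged 0.499 and 1.95 FPKM over 24 libraries and did not pass.

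**Figure D3:**
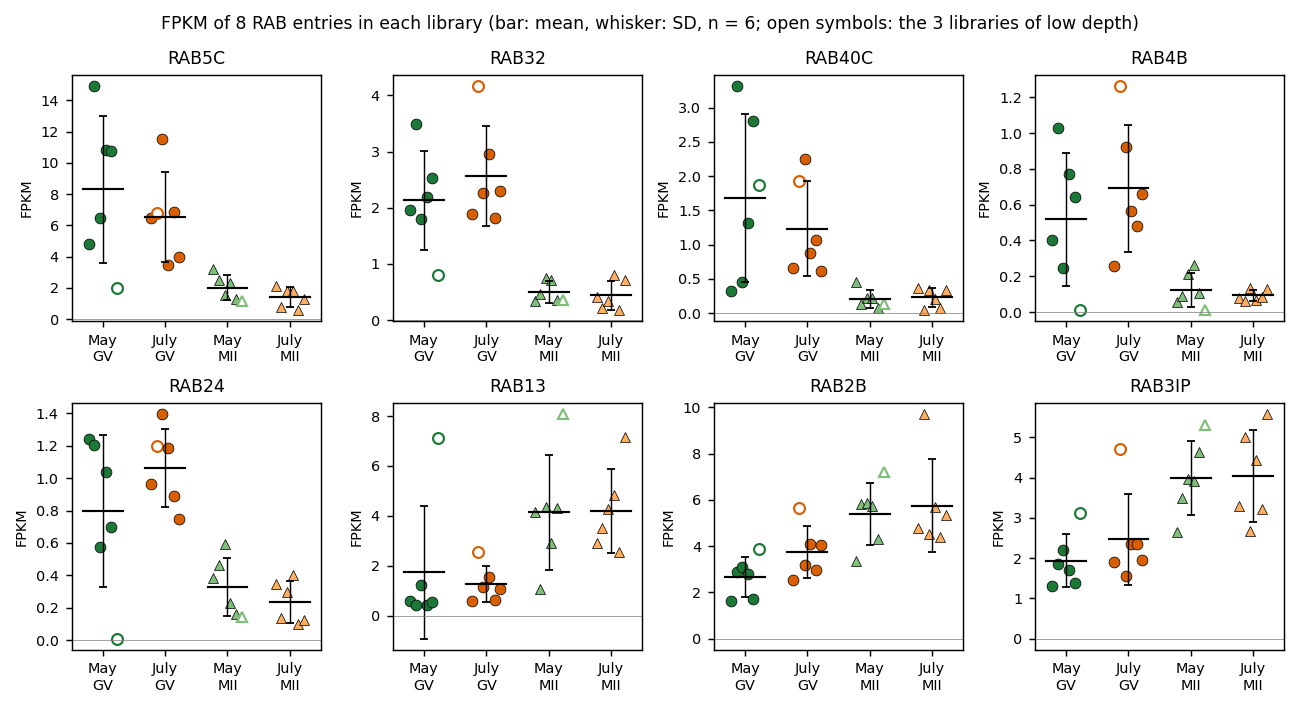
FPKM (vertical axes, linear) of RAB5C, RAB32, RAB40C, RAB4B, RAB24, RAB13, RAB2B and RAB3IP in each library of May GV, July GV, May MII and July MII, with the mean as a bar and the SD as a whisker (n = 6) and the 3 shallow libraries as open symbols. The means of the first 5 lie lower and those of the last 3 higher in MII than in GV libraries. The open symbol of May GV lies inside the May MII range for RAB5C, RAB13, RAB2B and RAB3IP and at the lowest value for RAB4B and RAB24.

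RABs of the ER and Golgi held no call in either month, with 2 of 11 past an adjusted p of 0.05 in May, both higher in MII, and 1 of 11 in July, lower in MII. These are 18.2% and 9.09%, beside 24.2% and 30.7% of all genes. RAB2B (chromosome 10, 25747369 to 25764521) had 1.64, 2.87, 3.09, 2.77, 1.70 and 3.89 FPKM in May GV and 3.37, 5.81, 5.88, 5.74, 4.30 and 7.2 FPKM in May MII libraries. The shallow library May GV 6 alone lay within the MII range. RAB2B rose in May (log2 difference 0.81, standard error 0.22, limma adjusted p = 0.0174), and in July it averaged 3.75 ± 1.1 FPKM in GV and 5.74 ± 2.0 FPKM in MII oocytes (log2 difference 0.49, limma adjusted p = 0.0925). Its paralog RAB2A averaged 0.720 and 0.983 FPKM in May and July GV and 1.90 and 1.83 FPKM in MII oocytes (limma adjusted p = 0.0685 and 0.106). RAB2B exceeded RAB2A in 24 of 24 libraries and held 75.4% to 80.1% of the pair in the mean of every group.

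RAB6A, which directs transport within the Golgi and from it to the ER, averaged 1.56 ± 0.74 and 3.46 ± 2.4 FPKM in May GV and MII and 1.70 ± 0.80 and 3.95 ± 2.5 FPKM in July GV and MII oocytes. The stages overlapped, and the log2 differences of 0.72 and 0.77 had limma adjusted p = 0.0892 and 0.0800. RAB6B, its brain paralog, averaged 0.436 to 0.538 FPKM by group, so that RAB6A held 73.4% ± 11 and 80.2% ± 7.3 of the pair in GV and 88.3% ± 2.1 and 90.7% ± 2.6 in MII oocytes. RAB1A and RAB1B, which start traffic from the ER, did not pass. RAB1A had medians of 1.75, 2.02, 1.74 and 1.75 FPKM in May GV, July GV, May MII and July MII, and 14.3 FPKM in May GV 6. RAB1B averaged 1.31 and 1.65 FPKM in May and July GV and 0.745 and 0.581 FPKM in MII oocytes (limma adjusted p = 0.259 and 0.0841).

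RAB30 and RAB34, named after their values were seen, also belong to this class, and both are Golgi proteins. RAB30 had 0.198, 0.414, 0.223, 0.267, 0.217 and 0.153 FPKM in May GV and 0.540, 0.680, 0.449, 0.553, 0.424 and 0.417 FPKM in May MII libraries. It rose there with no overlap (log2 difference 0.28, limma adjusted p = 0.0287), and passed in 7 of the 12 fits that left out single libraries. In July it averaged 0.287 ± 0.15 FPKM in GV and 0.432 ± 0.11 FPKM in MII oocytes and did not pass (log2 difference 0.16, limma adjusted p = 0.180). RAB34 had 0.633, 0.130, 0.569, 0.548, 0.401 and 0.206 FPKM in July GV and 0.108, 0.0392, 0.0815, 0.0930, 0.0369 and 0.0535 FPKM in July MII libraries. It fell there with no overlap (log2 difference -0.39, limma adjusted p = 0.00458) but did not pass in May (limma adjusted p = 0.136). RAB18, RAB33A and RAB33B averaged 1.29, 0.0392 and 0.201 FPKM over 24 libraries and did not pass.

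RAB40C, an atypical RAB with a SOCS box that joins it to a ubiquitin ligase, fell. RAB40C (chromosome 25, 517559 to 539515) had 0.317, 3.32, 0.457, 1.31, 2.81 and 1.87 FPKM in May GV and 0.456, 0.127, 0.223, 0.214, 0.0756 and 0.128 FPKM in May MII libraries. In July it had 0.664, 1.93, 2.26, 0.877, 1.07 and 0.612 FPKM in GV and 0.365, 0.0426, 0.343, 0.211, 0.0750 and 0.342 FPKM in MII libraries. In May 1 GV library lay within the MII range, and in July the stages did not overlap. The log2 difference was -1.03 (standard error 0.28, limma adjusted p = 0.0183) in May, where it was called, and -0.82 (standard error 0.19, limma adjusted p = 0.00592) in July, under the 2-fold limit. The May call was lost, with log2 differences of -0.86 to -0.99, when May GV 2, May GV 5, May GV 6 or May MII 5 was left out. It was also lost without the 3 shallow libraries (log2 difference -0.96, limma adjusted p = 0.0352) and with quantile normalization (log2 difference -0.87, limma adjusted p = 0.0166). RAB40B, and the cilium RABs RAB23 and RAB28, averaged 0.0571, 0.0424 and 0.338 FPKM over 24 libraries and did not pass.

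Among the 6 partners, RAB3IP, the GEF also known as Rabin8 that activates RAB8, stood highest. It had 1.31, 1.87, 2.20, 1.71, 1.39 and 3.11 FPKM in May GV and 2.65, 3.48, 3.96, 3.90, 4.63 and 5.32 FPKM in May MII libraries. RAB3IP rose in May (log2 difference 0.77, standard error 0.20, limma adjusted p = 0.0128), with only the shallow library May GV 6 inside the MII range. In July it averaged 2.47 ± 1.1 FPKM in GV and 4.04 ± 1.1 FPKM in MII oocytes (log2 difference 0.56, limma adjusted p = 0.0697). RAB3GAP1 and RAB3GAP2, the subunits of a GAP of RAB3, averaged 0.293 and 0.226 FPKM over 24 libraries, RAB11FIP2 and RAB11FIP5, effectors of RAB11, 0.126 and 0.0799 FPKM, and RAB3IL1, a GEF related to RAB3IP, 0.0427 FPKM. None of these 5 passed in either month with all libraries.

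The changes from GV to MII were set side by side for the 2 months, which share no library. Of the 57 entries, 46 (80.7%) had the same sign in May and July, 24 higher and 22 lower in MII, beside 85.5% of all genes. Pearson's r between the log2 differences of the 2 months was 0.85 over the 57 entries and 0.93 over the 55 without the second loci of RAB21 and RAB27A, beside 0.93 over all 9526 genes, where second loci of other genes were kept. Entries are not independent replicates, and these values describe the 24 libraries. The genomic span had a median of 31850 bp in the 24 entries higher in both months and 16826 bp in the 22 lower in both, and of 39384 bp in the former without the second loci. Over all genes the medians were 27079 and 10834 bp.

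**Figure D4:**
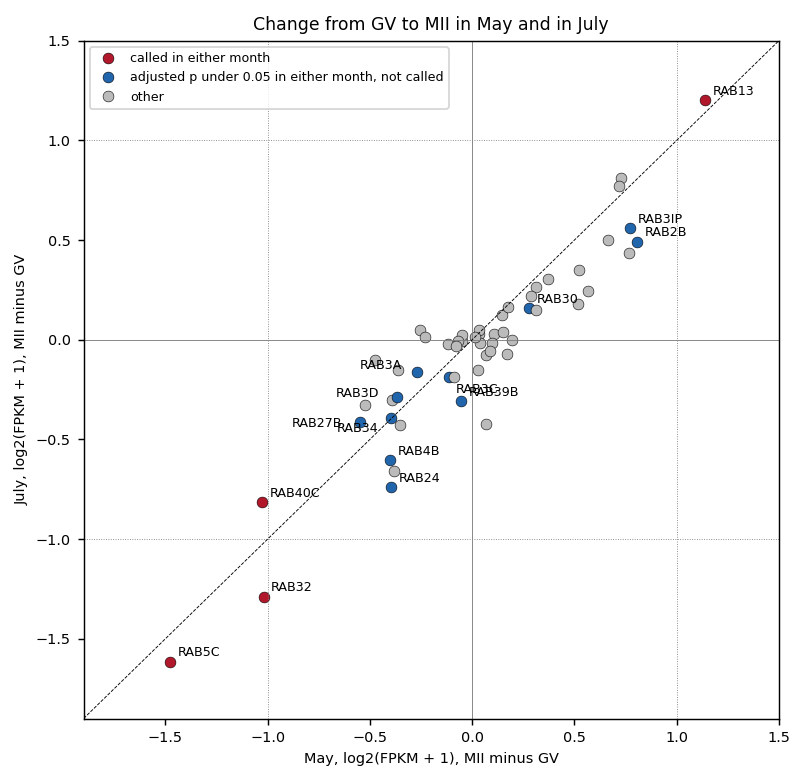
Difference in log2(FPKM + 1) between MII and GV oocytes in May (horizontal axis) and in July (vertical axis) for 55 RAB entries, without the second loci of RAB21 and RAB27A, coloured by whether they were called or had an adjusted p under 0.05 in either month. The points follow the dashed line of equal change, with RAB13 at the upper end and RAB40C, RAB32 and RAB5C at the lower end.

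Between July and May, 0 of 57 RAB entries were called in GV oocytes, where 0.0315% of all genes were called, and 0 had an unadjusted p under 0.05 in limma, where 1.55% of all genes did. In MII oocytes 0 were called, where 0.042% of all genes were, and RAB34 and RAB39B had an unadjusted p under 0.05 (2.11% of all genes), both lower in July. RAB34 averaged 0.247 ± 0.17 FPKM in May MII and 0.0687 ± 0.030 FPKM in July MII oocytes, with a log2 difference of -0.21 (limma adjusted p = 1, exact permutation p = 0.0260). The month by stage difference was called for 0 entries, where 0.21% of all genes were called, and only RAB39B had an unadjusted p under 0.05 (1.8% of all genes). With an adjusted p, 0 of the 9526 genes passed in these 3 comparisons. The median log2 difference of the entries was 0.03 in GV and -0.03 in MII oocytes, beside 0.01 and -0.01 over all genes.

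RAB21 and RAB27A are listed at 2 loci each, and the levels there alternate. RAB27A, which acts in the docking of granules, is listed on chromosome 10 (55134044 to 55160888) and on chromosome 18 (35100651 to 35101890, a span of 1240 bp). RAB21 is listed on chromosome 5 (1361980 to 1393426) and on chromosome X (97425147 to 97427313, 2167 bp).

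The second locus of RAB27A was at 0.01 in all 6 May GV libraries and in 5 of 6 July GV libraries, with 19.1 FPKM in July GV 1. In May MII libraries it had 0.01, 25.1, 0.01, 20.6, 23.4 and 68.3 FPKM, and in July MII libraries 44.4 and 31.1 FPKM in 2 of 6. In each of these 7 libraries the locus on chromosome 10 was at 0.01, and in the others it had 0.457 to 1.77 FPKM. The May call for the second locus (limma adjusted p = 0.0232, exact permutation p = 0.0606) rests on 4 of 6 MII libraries against GV libraries listed at the lowest value, so no fold is given. The second locus of RAB21 was above 0.01 only in May MII 5, with 40.1 FPKM, and July MII 4, with 96.9 FPKM, and there the locus on chromosome 5 was at 0.01. All 29 symbols listed at 2 loci in the table share this pattern of never being above the lowest value at both loci in 1 library. Why the loci alternate was not tested.

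**Figure D5:**
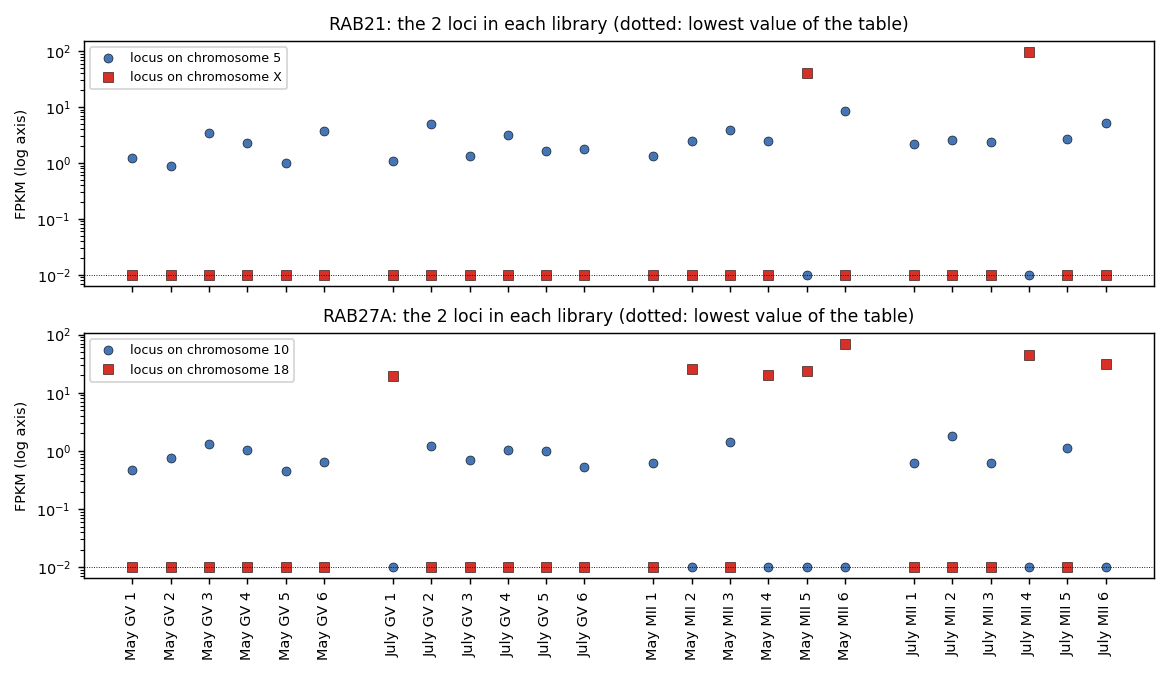
FPKM (log axis) at the 2 loci of RAB21 and of RAB27A in each of the 24 libraries, with the lowest value of the table, 0.01, as a dotted line. In each library 1 locus is at 0.01, and the second loci (squares) hold 19.1 to 96.9 FPKM where they are above it, higher than the circles in other libraries.

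The regulators of the RAB cycle were taken from lists that leave out the RAB entries themselves. Their counts stand against the shares of all genes called, 3.57% higher and 8.25% lower in May and 2.2% higher and 9.26% lower in July. Of 14 tested prenylation, GDI and PRA1 family genes, 1 was called higher and 0 lower in May and 1 higher and 1 lower in July. RABGGTB, the beta subunit of RAB geranylgeranyl transferase, rose in July from 5.40 ± 2.1 to 11.8 ± 3.4 FPKM (log2 difference 1.05, limma adjusted p = 0.0199). YIPF5, a Golgi membrane protein, rose in May from 4.58 ± 2.1 to 13.3 ± 9.4 FPKM (limma adjusted p = 0.0193), and YIPF3 fell in July from 2.37 ± 0.78 to 0.614 ± 0.21 FPKM (limma adjusted p = 0.000789). Of 28 tested GEF genes, 1 was called higher and 1 lower in May and 1 higher and 2 lower in July. TRAPPC5, a subunit of the TRAPP complexes that activate RAB1, fell from 59.6 ± 36 to 8.66 ± 2.5 FPKM in May and from 69.3 ± 29 to 7.06 ± 4.5 FPKM in July (limma adjusted p = 0.0379 and 0.000344). TRAPPC1, another subunit, was also called lower in July, at 81.4 ± 25 FPKM in GV and 42.1 ± 20 FPKM in MII oocytes, but did not pass with an adjusted p (limma adjusted p = 0.0738). In May, without a call, it averaged 70.6 ± 38 FPKM in GV and 46.2 ± 14 FPKM in MII oocytes. CCZ1, part of the GEF of RAB7, rose from 4.34 ± 3.2 to 11.6 ± 4.4 FPKM in May and from 4.77 ± 2.8 to 11.2 ± 3.3 FPKM in July (limma adjusted p = 0.00980 and 0.0102).

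Of 23 tested GAP genes, 0 were called in May and 2 were called lower in July, namely TBC1D10B and TBC1D25. TBC1D10B fell from 3.98 ± 2.5 to 1.11 ± 0.65 FPKM (limma adjusted p = 0.0119) and TBC1D25 from 2.57 ± 2.9 to 0.268 ± 0.18 FPKM (limma adjusted p = 0.0164). In May GV and MII, without a call, TBC1D10B averaged 3.26 ± 2.2 and 1.02 ± 0.80 FPKM and TBC1D25 1.24 ± 0.40 and 0.317 ± 0.24 FPKM. Of 42 tested effector genes, 2 were called higher and 1 lower in May and 0 in July. GCC2, a golgin, rose in May from 1.36 ± 1.6 to 5.96 ± 1.6 FPKM (limma adjusted p = 0.00317), KIF20A, a kinesin that binds RAB6, rose from 2.05 ± 0.82 to 6.90 ± 2.3 FPKM (limma adjusted p = 0.00375), and EHBP1L1 fell from 2.65 ± 1.7 to 0.667 ± 0.35 FPKM (limma adjusted p = 0.0168). In July GV and MII, without a call, GCC2 averaged 2.47 and 4.40 FPKM, KIF20A 3.60 and 7.65 FPKM and EHBP1L1 2.52 and 0.914 FPKM. The median log2 difference of the 4 lists lay between -0.18 and 0.08 in May and between -0.13 and -0.01 in July. None of the genes in these lists was called between July and May in either stage, and GCC2 alone was called for the month by stage difference (log2 difference -1.04, limma adjusted p = 0.9998).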

How the data were processed

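RNA-seq of 24 libraries of bovine oocytes was used, in 4 groups of 6 taken from the sample labels. The authors trimmed the reads, aligned them with STAR 2.5.3a to the bovine assembly UMD3.1 and deposited FPKM per gene and library. The common total of all libraries and the floor of 0.01 were read from the values. The authors' own comparisons were made in Partek and were not used here.

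Differences were tested with limma 3.58.1 (R 4.3.3; trend moderation, two-sided) on log2(FPKM + 1) for the 9526 genes over 0.1 FPKM in at least 1 library. The 2 groups compared entered each fit, and all 4 the difference between the months. No pairing was used. Depth was estimated in Python 3.11.15 from whole steps between low values. Counting intervals were not computed, as FPKM hold no counts. The limma and depth steps were tested on simulated data.

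Named were entries called between stages or months, RAB39B, the 5 highest in mean level, the families RAB1, RAB2, RAB3, RAB4, RAB5, RAB6, RAB8, RAB11 and RAB27, and at most 4 called genes with the smallest p of each regulator list. Others were named after their values were seen. Members and lists were chosen with earlier results of these data known. Alternatives were another pseudocount, filter, normalization, fit, call rule or moderation, a replicate block, and fits without single, sparse or shallow libraries.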

Additional observations from a re-analysis of the deposited data

Results flagged for a closer look

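Within groups of 6 libraries, 25 of 129 groups examined over 33 named entries held a library far from the other 5, by a limit that would mark about 1 in 20 groups of independent, normally distributed values. These values are skewed and share libraries, so that rate is only a guide. Of these, 17 came from the 3 shallow libraries. May GV 6 stood low in RAB11A (14.2 FPKM) and high in RAB11B (5.16), RAB13 (7.11), RAB4A (0.737), RAB5B (13.6) and RAB9A (8.60 FPKM). July GV 2 stood low in RAB11A (27.8 FPKM) and high in RAB11B (3.38), RAB30 (0.582), RAB39B (0.818), RAB3IP (4.70), RAB5B (26.6), RAB6B (1.32) and RAB8B (0.767 FPKM). May MII 6 stood high in RAB4A (0.316), RAB6B (1.26) and RAB8B (2.40 FPKM). Over all 57 entries tested, 19 (33.3%) were above the rest of the group in all 3 shallow libraries, beside 22.8% of all genes.

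At the paired loci, RAB21 on chromosome 5 stood low in July MII 4 (0.01 FPKM), RAB21 on chromosome X high in May MII 5 (40.1) and July MII 4 (96.9), and RAB27A on chromosome 18 high in July GV 1 (19.1 FPKM). The others were RAB2B in July MII 2 (9.70 FPKM), RAB39B in July MII 1 (0.0805) and RAB3B in May GV 2 (0.0249) and July GV 3 (0.0249 FPKM), all high. The change of RAB39B from GV to MII differed between July and May by -0.25 on the log2(FPKM + 1) scale, with a limma unadjusted p under 0.05 and an adjusted p of 0.9998.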

How the results depend on the processing

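The 5 RAB entries called from GV to MII in May became 15 with the ratio of group means or with a pseudocount of 0.1, 3 with quantile normalization or without the library that lists few genes (May MII 6), and 2 to 5 without single libraries: 2 without May GV 2 and 3 without May GV 5, May MII 5 or May MII 6. The 3 called in July became 12, 11 and 5 with the ratio of group means, the pseudocount of 0.1 and quantile normalization, and 3 to 4 without single libraries. With quantile normalization 1205 of all 9526 genes were called in May and 1166 in July. For the other settings the shares of all genes are not given here, so those counts are not set against a background. The 0 called between months in MII became 2 with the ratio of group means, RAB34 and RAB39B. The 0 called for the difference between months became 1 with the pseudocount of 0.1, RAB39B. Those 2 settings admit changes at low levels, which a pseudocount of 1 shrinks. Other counts stayed within 1.5 times. No result reversed.

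With the replicate number as a block, 5, 3, 0, 0 and 0 entries were called, as without it, and RAB3A in May no longer passed (limma adjusted p = 0.0633). The labels do not tie numbers to animals. Same-numbered libraries correlated at a mean of 0.338 between May MII and July MII (others -0.054) and 0.231 between July GV and July MII (others -0.033), with 4 of 6 pairs over 0.1 in each and 4 and 3 libraries correlating best with their own number. In the other 4 pairs of groups the mean was -0.051 to 0.162, and single pairs ranged from -0.44 to 0.76. No pair of groups had every correlation over 0.1, so the block was not used. Whether groups share animals under other numbers was not tested. The depth limits low entries: RAB39B, RAB3B and RAB20 lie near the floor.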
